A study of Mus musculus with 8 samples.

Results

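The 39 genes described here act in DNA replication: they license origins, form and switch on the replicative helicase, copy DNA, join its pieces, supply nucleotides, rebuild chromatin or start S phase. They were chosen by function as a list of symbols, and each was read through the probe set annotated to that symbol alone, the brightest over all arrays where there was more than 1. All 39 were measured, among 19938 genes with such a probe set, and none was left out by a filter on low values. Values are log2 expression values, so a difference of 1 is a doubling. The livers came from 4 mice whose genotype is constitutively active IKK2 transgenic and 4 wild type control mice, all 4 weeks old, with 1 array per liver. In the transgenic mice the constitutively active kinase is controlled by the LAP promoter, which is active in hepatocytes, and the control mice do not carry it. Both groups share a mixed C57BL/6 and NMRI stock backcrossed to C57BL/6 at least 4 times. Array medians ranged from 4.88 to 5.08, and albumin (Alb), which marks hepatocytes, read 13.5 to 13.6 on all 8 arrays. No background was measured on these arrays, and their number limits the precision.

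Before a cell copies its DNA, the origin recognition complex, CDC6 and CDT1 load the ring of MCM2 to MCM7 onto origins, which is called licensing. At the start of S phase CDC45 and the GINS complex join the ring and turn it into a moving helicase, behind which primase and the polymerases work. Many of these genes are targets of E2F transcription factors and are transcribed at the passage into S phase. Hepatocytes of the adult liver rarely divide, while the liver of a young mouse still grows. IKK2 is the kinase that releases NF-kB, a transcription factor of inflammation and cell survival.

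A part of the replication genes rose in transgenic liver. Of 39 members 13 did so at an adjusted p under 0.05 in limma's test over the 21789 probe sets with 1 symbol, or 33.3%, against 4.67% of all genes. The 13 were all 6 subunit genes of the MCM ring, Cdt1, Prim1, Pold1, Pole, Pcna, Rrm1 and Uhrf1. By the same test 0 members fell, against 1.67% of all genes, and 0 had an unadjusted p under 0.05 in that direction, whereas 29 had one in the upward direction. Among all genes 18.3% had an unadjusted p under 0.05 with a lower and 15.3% with a higher value in transgenic liver. When probe sets without a symbol or with several were tested too, 5 members rose, namely Mcm3, Mcm4, Mcm5, Mcm6 and Rrm1. The log2 fold change, transgenic minus control, was above 0 for 37 of 39, all but Mcm10 and Orc1, with a median of 0.52 against -0.07 over all genes. The lowest transgenic value lay above the highest control value for 24 members, or 61.5%, against 11.2% of all genes.

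Transgenic replicate 2 had the highest value of its group for each of the 39 members, and limma's array weights gave it the lowest weight of all 8 arrays, 0.278. Without it 15 members rose, 12 of them among the 13, with a median log2 fold change of 0.36. Fewer calls were left without certain other arrays. Only Mcm6 passed without transgenic replicate 1, control replicate 2 or control replicate 3, and only Mcm3 and Mcm6 passed without control replicate 1 or control replicate 4. Without those 5 arrays the share of all genes that rose was also small, 0.963% to 1.34%. Without transgenic replicate 3 there were 15 rises and without transgenic replicate 4 there were 21. The share of all genes that rose is not given without transgenic replicates 2, 3 or 4. Those counts are therefore not read as particular to the members. The median stayed between 0.36 and 0.65 whichever array was left out.

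**Figure D1:**
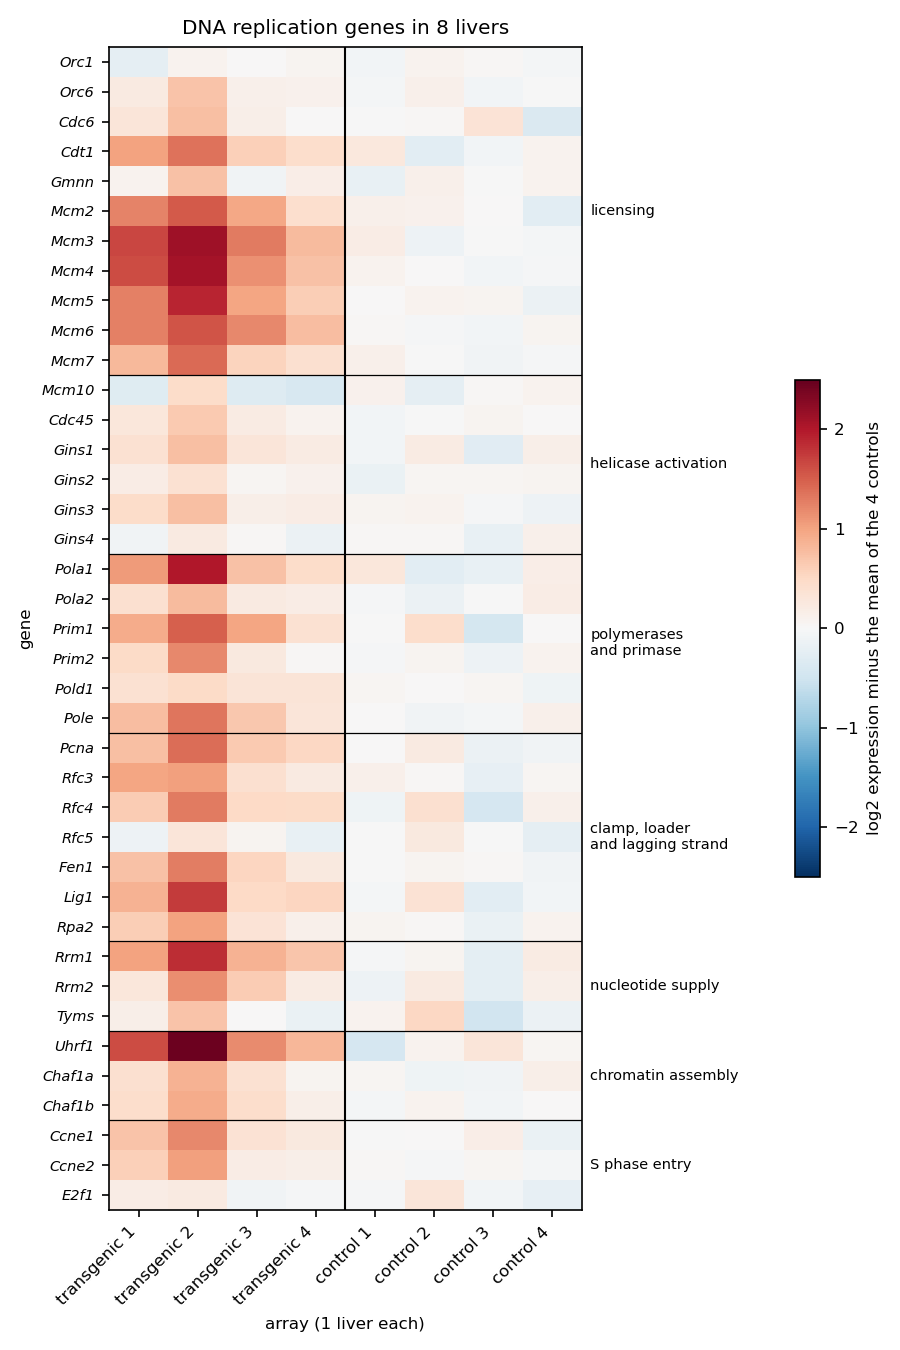
Heat map of the 39 members (down) in 4 transgenic and 4 control livers (across), coloured by the log2 value minus the mean of the 4 controls and grouped by role. Mcm3, Mcm4 and Uhrf1 hold the darkest cells, the column of transgenic replicate 2 is the reddest throughout, and Orc1, Mcm10, Gins4, Rfc5 and E2f1 stay pale in most livers.

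Start-site sequences are shown for 4 members that rose, Uhrf1 and Mcm3 with the 2 greatest changes and Mcm7 and Pold1 with the 2 smallest among those that have a window, because E2F factors are known to act at such genes. The windows run from 250 bases before to 50 bases after the start in RefSeq (GRCm38.p6) and are read along the gene. In the whole set of windows, all 1668 pairs that overlap by at least 100 bases on opposite strands have matching letters when read that way. Letters searched on both strands were TTCCCGC or TTGGCGC, a core of E2F sites, printed in capitals in either orientation. A TTGGCGC and its reverse can overlap each other, and the reverse can overlap a CCAAT box.
Uhrf1, chr17:56303087-56303386, + strand: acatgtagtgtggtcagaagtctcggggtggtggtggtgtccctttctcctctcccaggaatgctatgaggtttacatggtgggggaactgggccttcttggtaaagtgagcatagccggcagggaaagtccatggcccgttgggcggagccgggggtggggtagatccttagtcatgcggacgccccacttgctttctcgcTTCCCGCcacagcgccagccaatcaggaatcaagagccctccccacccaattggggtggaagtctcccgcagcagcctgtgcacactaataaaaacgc
Mcm3, chr1:20820263-20820562, - strand: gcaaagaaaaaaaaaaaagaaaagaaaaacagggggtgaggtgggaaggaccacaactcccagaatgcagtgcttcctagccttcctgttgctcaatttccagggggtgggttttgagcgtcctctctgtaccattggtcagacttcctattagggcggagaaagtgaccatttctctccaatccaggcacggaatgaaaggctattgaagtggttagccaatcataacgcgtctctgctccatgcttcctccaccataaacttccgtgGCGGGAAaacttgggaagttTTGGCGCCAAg
Mcm7, chr5:138171834-138172133, - strand: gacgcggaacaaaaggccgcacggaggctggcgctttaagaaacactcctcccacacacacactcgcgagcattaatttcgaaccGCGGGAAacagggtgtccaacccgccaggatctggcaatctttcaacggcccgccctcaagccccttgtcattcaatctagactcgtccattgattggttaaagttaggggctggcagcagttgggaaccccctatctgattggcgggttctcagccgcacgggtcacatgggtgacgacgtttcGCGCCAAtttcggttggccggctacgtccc
Pold1, chr7:44548766-44549065, - strand: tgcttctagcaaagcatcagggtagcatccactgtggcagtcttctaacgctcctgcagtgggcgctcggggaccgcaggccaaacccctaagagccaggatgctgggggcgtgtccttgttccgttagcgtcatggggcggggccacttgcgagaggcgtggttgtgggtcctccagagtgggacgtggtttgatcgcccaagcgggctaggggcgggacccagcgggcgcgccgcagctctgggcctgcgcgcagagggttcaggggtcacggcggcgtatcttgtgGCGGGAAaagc
All 4 windows hold the core, at -48 in Uhrf1, at 20, 40 and 43 in Mcm3, at -165 and 21 in Mcm7 and at 40 in Pold1, counted from the start to the match's left end. For Uhrf1 and Mcm7, which have 2 windows each, the first that holds the core was taken, which was the one listed first. The choice thus favoured windows with a core. The second window of Uhrf1 holds 0 cores and that of Mcm7 holds 1, at -113.

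Further cores are shown with 7 bases on either side for Mcm5, Mcm6, Prim1 and Rrm1, which rose as well, with the position of the match's left end from the start.
Mcm5, -149: aactttcGCGCCAAaacgtcc
Mcm6, -46: gacgggtTTGGCGCgaagtag
Prim1, -15: tgtcttgTTCCCGCcaattct
Rrm1, -67: gaactcgTTCCCGCcaggtcc
The core was present in 18 of the 31 members that have a window, or 58.1%, against 10.7% of the 15614 array genes that have one. It was found for 9 of 11 such members that rose and for 9 of 20 that did not pass. The windows of Mcm2 and Pcna, both of which rose, do not hold these letters. The CCAAT box stood in 61.3% of members and in 41.7% of array genes. TTTGAA or TTCGAA, the cell cycle homology region of late cell cycle genes, stood in 19.4% of members and 19.0% of array genes. Such matches describe the letters of a window and are not shown to be bound.

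All 6 genes of the MCM ring rose, each in all 4 transgenic livers. Mcm3 read 7.53, 7.97, 7.14 and 6.63 in transgenic replicates 1 to 4, against 6.03, 5.73, 5.85 and 5.80 in control replicates 1 to 4. Its groups did not overlap, and the log2 fold change was 1.47 (SE 0.24, 2.77-fold, adjusted p = 0.0131 by limma). Mcm4 read 7.24, 7.69, 6.76 and 6.34 in transgenic livers, against 5.69, 5.63, 5.54 and 5.57 in controls. The control livers differed by only 0.15, while the transgenic livers spanned 1.34, and the log2 fold change was 1.40 (SE 0.24, adjusted p = 0.0160).

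Mcm6 had the smallest p of all members. It read 8.60, 8.91, 8.54 and 8.11 in transgenic livers, against 7.36, 7.32, 7.27 and 7.41 in controls. The log2 fold change was 1.20 (SE 0.15, 2.30-fold, adjusted p = 0.00409), and the call held in each of 17 other settings. Mcm5 read 7.74, 8.39, 7.47 and 7.10 in transgenic livers, against 6.49, 6.58, 6.55 and 6.33 in controls, and its log2 fold change reached 1.19 (SE 0.23, adjusted p = 0.0224). Mcm2 read 7.60, 7.89, 7.31 and 6.78 in transgenic livers, against 6.48, 6.46, 6.37 and 6.09 in controls. Its log2 fold change was 1.04 (SE 0.21, adjusted p = 0.0269), with transgenic replicate 4 closest to the controls. The smallest change of the ring belonged to Mcm7, which read 8.07, 8.68, 7.81 and 7.66 in transgenic livers, against 7.39, 7.25, 7.16 and 7.24 in controls, where the difference was 0.80 (SE 0.19, adjusted p = 0.0437).

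The 6 genes kept the same order of livers. Their mean was 7.80, 8.25, 7.51 and 7.10 in transgenic replicates 1 to 4, against 6.57, 6.50, 6.46 and 6.41 in control replicates 1 to 4. For each of the 6, transgenic replicate 2 was the highest and replicate 4 the lowest of its group. Without transgenic replicate 2 the log2 fold changes ranged from 0.59 for Mcm7 to 1.25 for Mcm3, and all 6 passed. Only Mcm6 of the 6 passed without transgenic replicate 1, control replicate 2 or control replicate 3. Without control replicate 1 or control replicate 4, only Mcm3 and Mcm6 did.

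**Figure D2:**
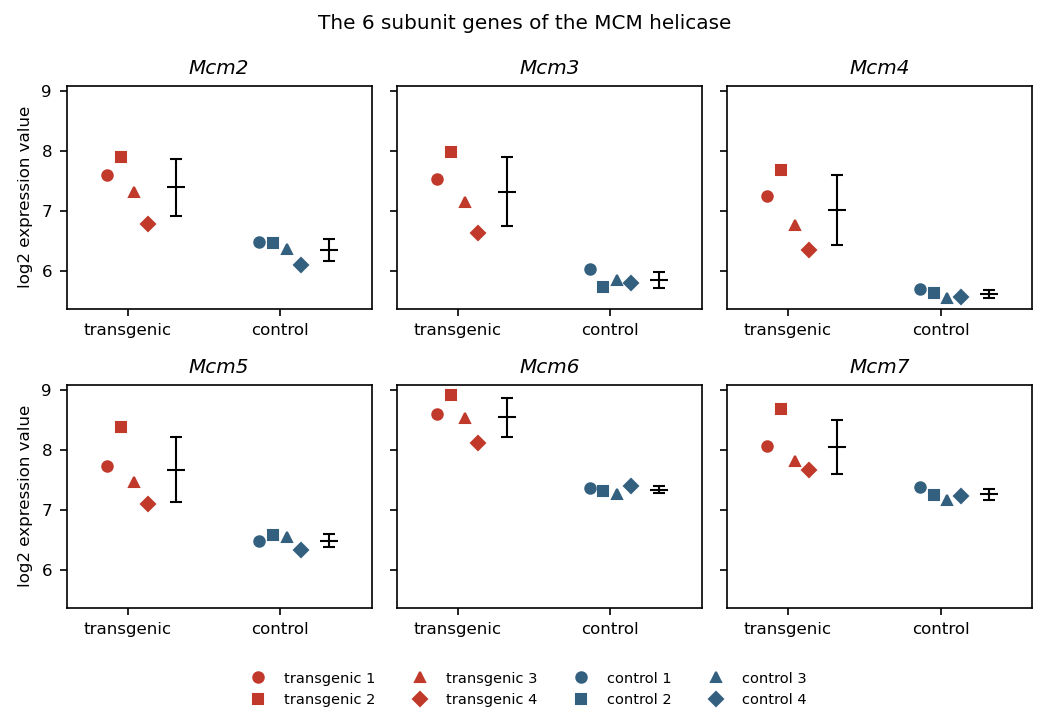
Log2 expression values of Mcm2 to Mcm7 in each transgenic liver (red, left) and control liver (blue, right), with the replicate number given by the marker and the mean and SD of 4 livers in black. No transgenic value falls among the controls, and the transgenic values spread widely, from 6.34 to 7.69 for Mcm4, against 5.54 to 5.69 in controls.

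The factors that load the ring moved less evenly. Cdt1, which delivers the MCM ring to origins, read 7.03, 7.39, 6.63 and 6.48 in transgenic livers, against 6.30, 5.77, 5.97 and 6.11 in controls. The groups did not overlap, and it rose by 0.85 (SE 0.20, adjusted p = 0.0403). Gmnn encodes geminin, the inhibitor of CDT1, and averaged 4.83 ± 0.35 in transgenic livers and 4.61 ± 0.14 in controls (SD, n = 4 each), with the 95% interval of the difference from -0.15 to 0.59. All Gmnn readings but that of transgenic replicate 2 lie under every array median. Cdc6, the loader ATPase, averaged 5.78 ± 0.32 in transgenic livers and 5.48 ± 0.29 in controls (SD, n = 4 each).

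Of the origin recognition complex, Orc6 averaged 6.24 ± 0.28 in transgenic livers and 5.94 ± 0.09 in controls (SD, n = 4 each), with an adjusted p = 0.159 by limma. Orc1, the subunit that comes and goes with the cell cycle in mammals, read 3.17 to 3.48 in transgenic livers and 3.32 to 3.47 in controls. Those readings lie under every array median. In all, 7 of the 11 licensing genes rose, against 4.67% of all genes, with a median log2 fold change of 0.85.

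Genes that turn the loaded ring into a running helicase showed smaller differences, and 0 of 6 passed by limma, where 4.67% of all genes rose. At an unadjusted p under 0.05, 3 of the 6 were higher, against 15.3% of all genes. Gins3 had the smallest p of the 6, and encodes a GINS subunit. It read 5.05, 5.34, 4.72 and 4.76 in transgenic livers, against 4.65, 4.67, 4.55 and 4.46 in controls, differing by 0.39 (SE 0.14, adjusted p = 0.0949). The groups did not overlap, though the gap between replicate 3 of the transgenic livers and the highest control was small. Readings of all controls and of transgenic replicates 3 and 4 lie under every array median. Gins1 differed by 0.41 and Gins2 by 0.18, while Gins4 stood at 0.00 with a 95% interval from -0.23 to 0.24. Cdc45, the third part of the active helicase, averaged 6.09 ± 0.24 in transgenic livers and 5.78 ± 0.06 in controls (SD, n = 4 each), without overlap (adjusted p = 0.114).

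Mcm10, a scaffold that helps to activate the helicase and is not part of the MCM ring, had the lowest log2 fold change of the members, -0.14 (95% interval -0.55 to 0.27). It read 6.04, 6.80, 6.01 and 5.94 in transgenic livers, against 6.45, 6.10, 6.37 and 6.43 in controls. Transgenic replicate 2 lay above all controls and the other 3 transgenic livers below them. Without that replicate the log2 fold change was -0.34 (adjusted p = 0.0875).

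Among polymerase and primase genes 3 of 6 rose, against 4.67% of all genes. All 6 were higher at an unadjusted p under 0.05, against 15.3% of all genes. Prim1, the catalytic subunit of primase, which lays down RNA primers, read 7.001, 7.57, 7.07 and 6.46 in transgenic livers, against 6.08, 6.52, 5.64 and 6.09 in controls. It rose by 0.94 (SE 0.24, adjusted p = 0.0480), and it was the only one of the 13 whose groups overlapped, since transgenic replicate 4 lay under control replicate 2. It no longer passed once transgenic replicate 2 was left out (adjusted p = 0.0582), nor in 9 of the other 16 settings. Prim2, the regulatory subunit of primase, differed by 0.48 (adjusted p = 0.150).

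Pole, the catalytic subunit of the leading strand polymerase, read 6.19, 6.75, 6.09 and 5.72 in transgenic livers, against 5.42, 5.33, 5.38 and 5.53 in controls. It rose by 0.77 (SE 0.18, adjusted p = 0.0424). Pold1, the catalytic subunit of the lagging strand polymerase, read 6.32, 6.42, 6.26 and 6.26 in transgenic livers, against 5.98, 5.94, 5.99 and 5.83 in controls. Its rise of 0.38 (SE 0.08, adjusted p = 0.0307) was the smallest among the 13, and its transgenic livers were as close together as its controls, with an SD of 0.07 in both groups.

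Pola1, the catalytic subunit of the polymerase that extends primers, read 6.52, 7.45, 6.19 and 5.91 in transgenic livers, against 5.74, 5.18, 5.26 and 5.62 in controls. The groups did not overlap and the log2 fold change was 1.06, but it did not pass (SE 0.29, adjusted p = 0.0575), with an SD of 0.67 in transgenic livers. Without transgenic replicate 2 it was smaller, 0.75, and passed (adjusted p = 0.0329). Pola1 did not pass without transgenic replicate 1 or any of the controls. Its partner Pola2 differed by 0.40 (adjusted p = 0.0939).

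The clamp, its loader and the enzymes of the lagging strand came to 1 rise among 7. Pcna, the sliding clamp that holds polymerases on DNA, read 9.24, 9.87, 9.13 and 8.998 in transgenic livers, against 8.49, 8.70, 8.34 and 8.39 in controls. It rose by 0.83 (SE 0.18, 1.78-fold, adjusted p = 0.0327). A different probe set of the same symbol, with a log2 fold change of 0.84, gave nearly the same readings on all arrays, and since Pcna has pseudogenes in the mouse, which locus each of them reads is uncertain.

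Lig1, the ligase that seals lagging strand pieces, read 7.31, 8.19, 6.93 and 6.98 in transgenic livers, against 6.40, 6.80, 6.18 and 6.37 in controls. The groups did not overlap, yet it did not pass (log2 fold change 0.91, SE 0.26, adjusted p = 0.0619). It did pass without transgenic replicate 2, at 0.63 (adjusted p = 0.0392), but not without transgenic replicate 1 or any of the controls. Fen1, the nuclease that trims those pieces, averaged 6.50 ± 0.44 in transgenic livers and 5.80 ± 0.06 in controls (SD, n = 4 each). It too missed the threshold (log2 fold change 0.70, adjusted p = 0.0540) and passed without replicate 2 (adjusted p = 0.0327). Fen1 did not pass without transgenic replicate 1, transgenic replicate 3 or any of the controls.

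Of the clamp loader, Rfc3 differed by 0.65 and Rfc4 by 0.72, both without overlap of the groups (adjusted p = 0.0601 and 0.0668 by limma). Rfc5, another loader subunit, averaged 8.09 ± 0.22 in transgenic livers and 8.07 ± 0.19 in controls (SD, n = 4 each), with a 95% interval of the difference from -0.28 to 0.31. Rpa2, a subunit of the protein that coats single-stranded DNA, differed by 0.52 (adjusted p = 0.0820), again without overlap.

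Nucleotide supply was represented by 3 genes, of which Rrm1 rose, where 4.67% of all genes did. Rrm1, the large subunit of ribonucleotide reductase, read 8.86, 9.69, 8.73 and 8.55 in transgenic livers, against 7.81, 7.92, 7.62 and 8.06 in controls. The lowest transgenic liver stood clearly above the highest control, and the log2 fold change was 1.11 (SE 0.22, 2.15-fold, adjusted p = 0.0262). The small subunit, Rrm2, averaged 7.85 ± 0.43 in transgenic livers and 7.28 ± 0.22 in controls (SD, n = 4 each), and its groups overlapped (log2 fold change 0.57, adjusted p = 0.0953). Tyms, which makes thymidylate, read 6.22 to 7.10 in transgenic livers and 5.92 to 6.92 in controls. Its groups overlapped widely, and the 95% interval of the difference ran from -0.35 to 0.69.

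Uhrf1 had the highest log2 fold change of the members. It recognises hemimethylated DNA behind the fork and brings the maintenance methyltransferase there. It read 6.96, 7.77, 6.50 and 6.15 in transgenic livers, against 4.90, 5.40, 5.62 and 5.36 in controls. The log2 fold change was 1.52 (SE 0.31, 2.88-fold, adjusted p = 0.0269), with no overlap and the largest SD among transgenic livers of any member, 0.70. Without transgenic replicate 2 it was 1.22 (adjusted p = 0.00714). Uhrf1 did not pass without transgenic replicate 1 or any of the controls. Chaf1a and Chaf1b, subunits of the factor that puts histones on new DNA, differed by 0.43 and 0.48 and did not pass (adjusted p = 0.0971 and 0.0721).

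The regulators that start S phase gave no call by limma, where 4.67% of all genes rose. At an unadjusted p under 0.05, 2 of the 3 were higher, against 15.3% of all genes. Ccne1, cyclin E1, read 6.10, 6.59, 5.75 and 5.63 in transgenic livers, against 5.38, 5.39, 5.56 and 5.23 in controls. The groups did not overlap, and the log2 fold change was 0.63 (SE 0.19, adjusted p = 0.0691). Ccne2, cyclin E2, had controls within 0.10 of each other and differed by 0.49 (adjusted p = 0.0986), also without overlap. The Ccne2 readings of all controls and of transgenic replicates 3 and 4 lie under every array median. E2f1, a gene of the E2F family of transcription factors, averaged 5.42 ± 0.16 in transgenic livers and 5.34 ± 0.21 in controls (SD, n = 4 each). Its log2 fold change was 0.07, with a 95% interval from -0.20 to 0.35.

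**Figure D3:**
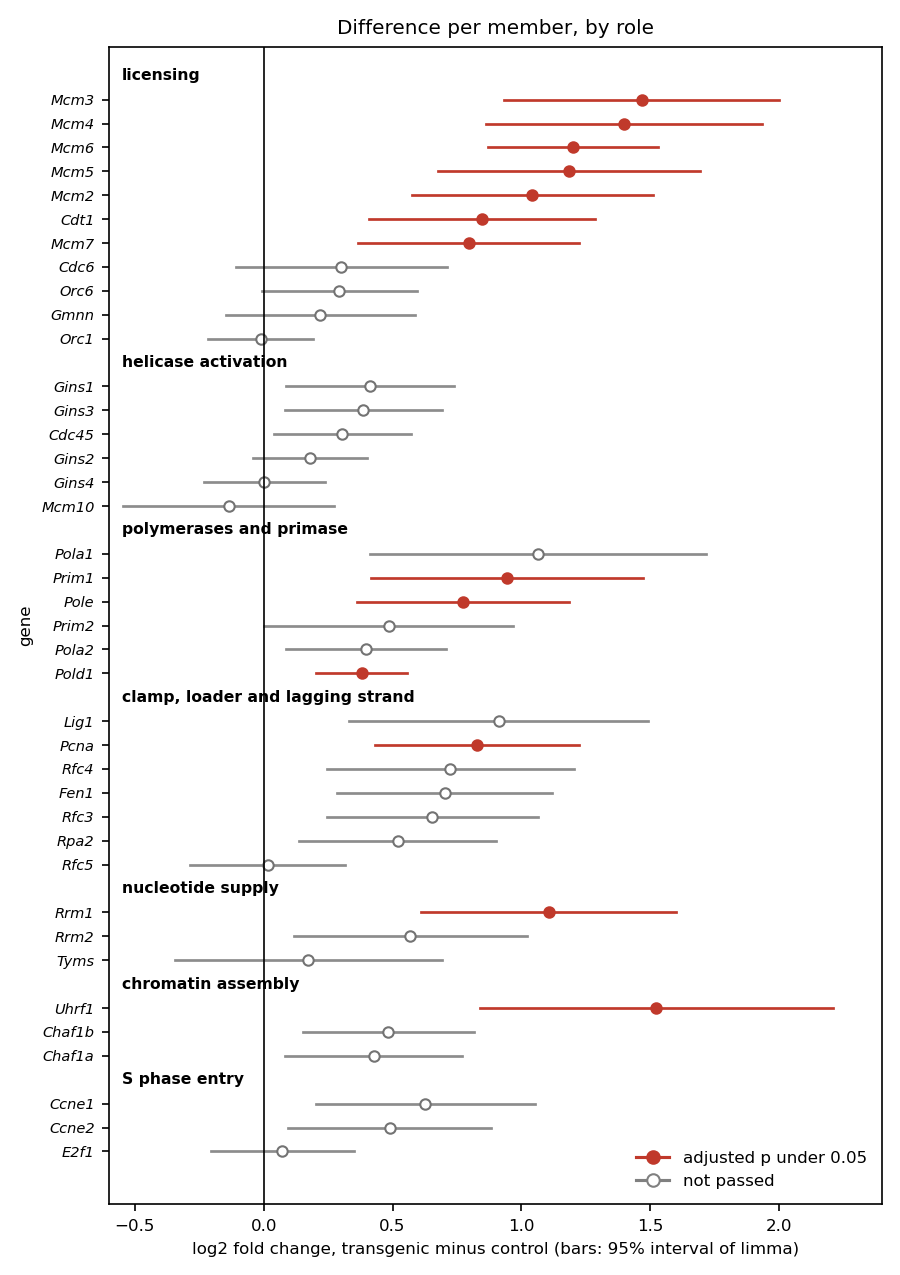
Log2 fold change (transgenic minus control, horizontal) of the 39 members by role, with limma's 95% intervals. Filled red points mark the 13 that rose at an adjusted p under 0.05, among them the 6 genes from Mcm2 to Mcm7. No gene of helicase activation (0 of 6) or S phase entry (0 of 3) is filled, where 4.67% of all genes rose. Such small counts do not set these roles apart.

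The transgenic livers differed from each other more than the controls did. The SD over 4 livers was larger in the transgenic group for 37 of 39 members, or 94.9%, against 59.4% of all genes. Its median was 0.39 in transgenic livers and 0.13 in controls for the members, and 0.16 in transgenic livers and 0.14 in controls for all genes. The exceptions were Tyms and E2f1. After quantile normalization it was larger for 30 members, with medians of 0.32 in transgenic livers and 0.14 in controls. These are descriptions of 4 animals a group, with no test.

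The spread had an order, from replicate 2 down to replicate 4. Transgenic replicate 2 was the highest of its group for 39 of 39 members, against 31.0% of all genes, and replicate 4 the lowest for 33, or 84.6%, against 22.8%. The complete order 2, 1, 3, 4 held for 29 members, and for 10.8% of all genes. Relative to each gene's transgenic mean, the median member stood 0.51 higher in replicate 2 and at -0.002, -0.17 and -0.37 in replicates 1, 3 and 4. After quantile normalization replicate 2 was highest for 35 members and replicate 4 lowest for 29.

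Even the lowest transgenic liver stood above the controls for most members. Relative to the mean of the controls, the median member was higher by 0.60, 1.02, 0.38 and 0.20 in transgenic replicates 1 to 4, against -0.08, -0.11, -0.03 and -0.04 over all genes. In replicate 4, 26 of 39 members exceeded every control, or 66.7%, against 18.1% of all genes. In replicate 2 it was 38 members, E2f1 being the exception. The mean of the 39 was 6.64, 7.13, 6.47 and 6.28 in transgenic replicates 1 to 4, against 6.03, 6.09, 5.95 and 6.02 in control replicates 1 to 4.

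**Figure D4:**
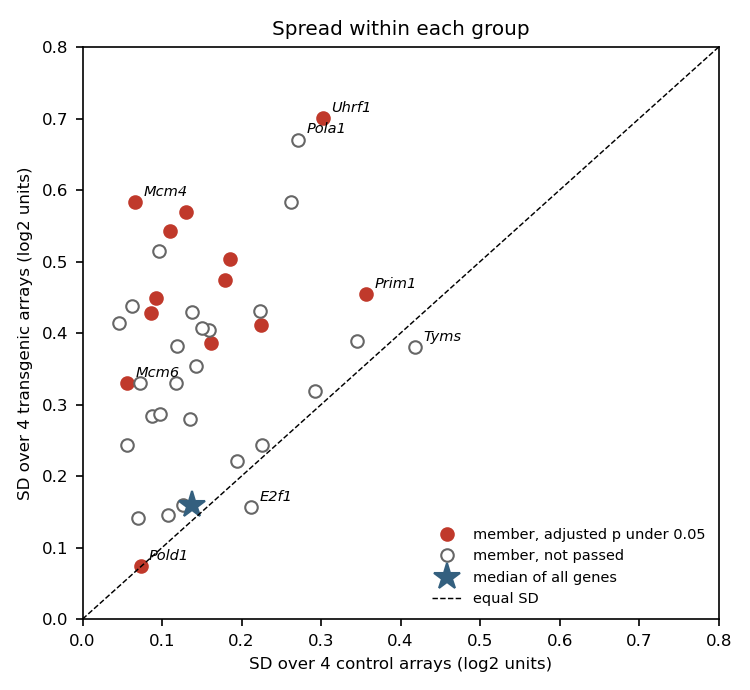
SD over the 4 transgenic livers (vertical) against SD over the 4 control livers (horizontal) for each member, in log2 units, with the median of all genes as a star. All but Tyms and E2f1 lie above the dashed line of equal SD, Uhrf1 and Pola1 highest.

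Other genes of DNA replication were read from a separate list of 54, of which 53 were measured. Among them 8 rose and 0 fell by limma's test, against 4.67% and 1.67% of all genes. At an unadjusted p under 0.05, 24 were higher and 2 lower (among all genes 15.3% and 18.3%). The median log2 fold change was 0.29. Top2a, the topoisomerase that untangles copied DNA, rose by 1.64 (adjusted p = 0.0342), and by 0.83 when its 2 probe sets were averaged (adjusted p = 0.0418). The nucleotide hydrolase Samhd1 rose by 1.34 (adjusted p = 0.0224). Rbl1 and Rb1, pocket proteins that restrain E2F factors, rose by 1.20 and 0.74. Dnmt1, the methyltransferase that UHRF1 recruits, rose by 1.09 (adjusted p = 0.0176) and Topbp1, which helps to fire origins, by 0.90. The remaining 2 were Tipin, a protein of the fork, at 0.77 and Mcmbp, which binds MCM subunits, at 0.58. All 8 rises were lost when transgenic replicate 1 or any control was left out.

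Genes of mitosis, 27 of 28 measured, had a median log2 fold change of 0.91, against 0.52 for the replication members. By limma 3 of them rose, or 11.1%, against 4.67% of all genes. At an unadjusted p under 0.05, 22 were higher, or 81.5%, against 15.3% of all genes. Mki67, the common marker of cycling cells, rose by 1.47 (adjusted p = 0.0323), the checkpoint kinase Bub1 by 1.75 (adjusted p = 0.0403) and the spindle motor Kif11 by 1.38 (adjusted p = 0.0461). Their control livers varied more: the median SD in controls was 0.40 for mitosis genes and 0.13 for the replication members. The mean of the mitosis list was 6.73, 7.61, 6.45 and 6.44 in transgenic replicates 1 to 4, against 5.74, 6.24, 5.47 and 6.28 in control replicates 1 to 4. Control replicate 3 was the lowest control for 22 of 27 mitosis genes and for 17 of 39 replication members.

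These are whole livers, so more cells of a type and more RNA per cell cannot be told apart. Macrophage markers were higher too: 8 of 10 rose, against 4.67% of all genes. Their list means were 8.78 to 10.1 in transgenic livers and 7.45 to 7.92 in controls. The order of transgenic means was replicates 2, 3, 1, 4, and that of the members 2, 1, 3, 4. Of 7 monocyte markers 6 rose, with list means of 6.82 to 8.23 in transgenic livers and 5.29 to 5.40 in controls. Replicate 2 was again the highest, but replicate 3 was the lowest, also for 5 of the 7 markers. Of 9 T and NK cell markers 2 rose, with means of 4.81 to 5.73 in transgenic livers and 4.36 to 4.48 in controls. Those transgenic means had the order of the members. The part of these cells in the rise of the replication genes was not tested.

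Among markers of the other cell types few passed, where 4.67% of all genes rose and 1.67% fell by limma. Their counts at an unadjusted p under 0.05 stand against 33.6% of all genes in either direction. Hepatocyte markers had means of 12.4 to 12.7 in transgenic livers and 12.5 to 12.7 in controls, and 0 of 9 passed by limma. At an unadjusted p under 0.05, 2 were lower, Tdo2 (log2 fold change -0.49) and Ttr (-0.29), each lowest in transgenic replicate 2. Of 8 erythroid markers, genes of red blood cells and their precursors, 0 rose and Gata1 and Car1 fell. Their list means were 5.17 to 5.30 in transgenic livers and 5.47 to 5.69 in controls. Car1 had a log2 fold change of -1.62, while the median of the 8 was -0.14 and 3 were positive. All Gata1 readings lie under every array median. Neutrophil markers had means of 4.22 to 4.69 in transgenic livers and 4.21 to 4.48 in controls, and those of B and plasma cells 4.13 to 4.52 in transgenic livers and 4.17 to 4.36 in controls. All of these means lie under every array median, and 0 of 8 and 0 of 6 markers passed, with 1 and 0 at an unadjusted p under 0.05. Endothelial markers had means of 8.62 to 8.81 in transgenic livers and 8.32 to 8.69 in controls, and 0 of 6 passed, 2 having an unadjusted p under 0.05. Bile duct markers had means of 5.61 to 5.81 in transgenic livers and 5.68 to 5.80 in controls, and 0 of 4 passed, 1 having an unadjusted p under 0.05. Stellate cell markers had 2 rises among 6, with means of 8.02 to 8.35 in transgenic livers and 7.66 to 8.01 in controls.

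**Figure D5:**
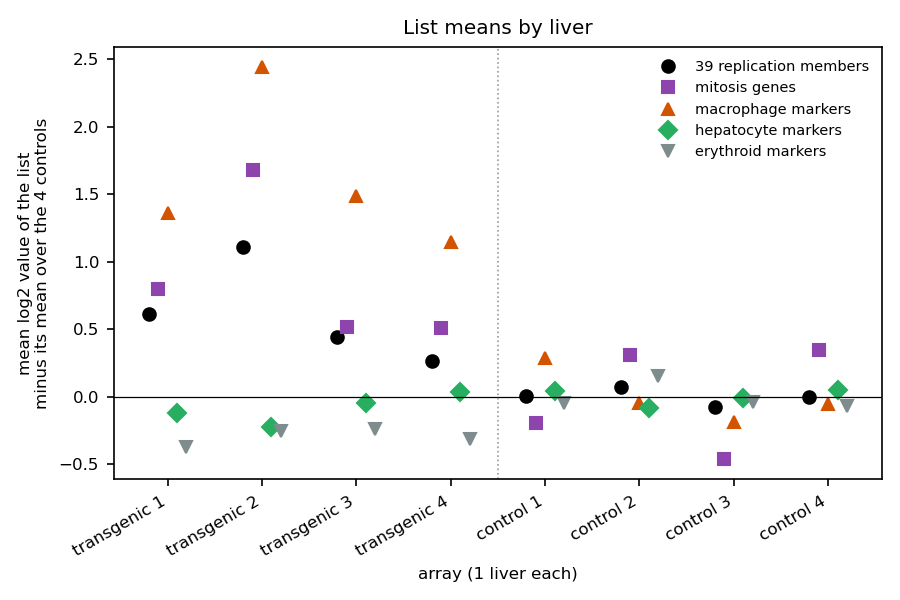
Mean log2 value of each list minus its mean over the 4 controls (vertical) in each liver (horizontal), transgenic left of control. The 39 replication members, the mitosis genes and the macrophage markers all peak in transgenic replicate 2, where the hepatocyte mean is lowest. The erythroid mean there (5.28) is close to its highest transgenic value (5.30, replicate 3), and 5 of 8 erythroid markers are highest in replicate 2. Of the lists not drawn, those of monocytes, T and NK cells, neutrophils and bile duct also have their highest transgenic mean in replicate 2. Those of B and plasma cells, endothelium and stellate cells do not.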

How the data were processed

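Total RNA from frozen liver was labelled with biotin by a whole transcript sense target assay, per the labels. The deposited log2 values, 1 per probe set and array, came out of the Affymetrix program Expression Console, as named in the submitters' processing notes. The sources used here do not give their normalization, and base 2 was read from the maximum of 14.1. No further normalization was applied. Of 35556 probe sets, the 21789 annotated to exactly 1 symbol entered the fit. Limma 3.58.1 in R 4.3.3 fitted group as the only term with empirical Bayes moderation. Tests were two-sided with Benjamini-Hochberg adjustment over all 21789. Each gene was counted through its brightest probe set. The 4 samples of a group are biological replicates per the labels. The fit was tested on simulated data, drawn independently for each probe set with the same SD in both groups. That simulation does not cover the unequal spread of the members, shared across genes, that is described above.

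Members and lists were chosen with earlier results of these data known, so list counts and medians carry no test. Array values are given for members that passed, for those with the 5 largest changes and the 5 largest transgenic SDs, and for the smallest p of each role. Those of Mcm10 were added after they were seen. Named from the other lists were genes past the threshold, at most 6 a list; Tipin and Mcmbp were added after their values were seen. Alternatives were other scalings, filters on dim probe sets, probe set rules, moderation, array weights, a replicate block and leaving out each array. A different pseudocount did not apply to log2 values.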

Additional observations from a re-analysis of the deposited data

Results flagged for a closer look

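Of 80 sets of 4 values examined (39 members and their mean, in each group), 2 held a liver whose gap to the nearest other, as a share of the set's range, passed Dixon's 95% critical value, where chance flags about 1 set in 20. For Mcm10, transgenic replicate 2 read 6.805, apart from 5.94 to 6.04 in the other transgenic livers. For Gins2, a subunit of the GINS complex, control replicate 1 read 5.73, apart from 5.93 to 5.96 in the other controls.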

How the results depend on the processing

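The count of 13 members that rose became 5 when all deposited probe sets were tested, where 2.13% of all genes rose, and it ranged from 1 to 21 when each array was left out in turn. In the remaining settings it was 11 to 17. With quantile normalization it was 14, where 5.27% of all genes rose, and with centring on array medians 12, where 4.14% did. The ranges given here for a left-out array do not account for the share of all genes that rose. The 8 rises among other replication genes became 3 with all deposited probe sets and ranged from 0 to 16 with an array left out, and quantile normalization gave 1 fall among them, against 0. The 3 rises among mitosis genes became 0 with all deposited probe sets, 5 when probe sets in the dimmest 30% or 50% were dropped and 6 with the replicate number as a block, and ranged from 0 to 11 with an array left out. The cause was not tested. The median log2 fold change of members lay between 0.36 and 0.65 in all settings, and no member that rose changed sign. Replicate numbers share only a number: deviations of same-numbered livers correlated at 0.24, -0.03, 0.26 and -0.13, and 2 of 4 transgenic livers correlated best with their own number. With that block 11 members rose, Cdt1, Mcm7, Pold1 and Pole no longer passing (adjusted p = 0.0627, 0.0511, 0.0594 and 0.0666 by limma), while Rfc4 and Lig1 passed (adjusted p = 0.0308 and 0.0246).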
